A study of Mus musculus with 7 samples.

Results

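Psca, Slurp1, Lypd3, Ly6d, Plaur, Lypd8, Ly6a and Ly6e are 8 mouse genes of the Ly6 and uPAR family, and they were followed across 7 RNA-sequencing libraries of endometrial epithelial cells. They were taken by gene symbol (PSCA, SLURP1, LYPD3, LY6D, PLAUR, LYPD8, LY6A and LY6E) from a table of 24353 genes, where each had 1 row. The members were chosen by gene name with measured FPKM values of these same 7 libraries known, and which values brought in each gene is not recorded. Their levels, fold changes and calls below are therefore descriptions without p-values.

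The libraries came from C57BL/6 female mice whose ovaries had been removed at 6 to 7 weeks of age and which were then treated for 28 days. Tamoxifen plus alpelisib (2 libraries) was given at 0.5 mg of tamoxifen per day under the skin with 30 mg/kg of alpelisib per day by mouth, tamoxifen alone (2 libraries) at the same dose in peanut oil, estradiol (2 libraries) from a pellet of 0.01 mg, and vehicle to the estrogen-deprived group (1 library). Tamoxifen is an estrogen receptor modulator with agonist activity in uterine tissue, and alpelisib is an inhibitor of PI3K alpha. The 18 randomized mice made up the arms with tamoxifen and the vehicle arm, with 6 mice each. The 2 mice that received estradiol are not counted among these 18, so comparisons with estradiol are not between randomized arms. The labels do not say whether the vehicle library is 1 mouse or a pool, and its values have no SD.

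Proteins of this family carry the LU domain, a small fold of 3 loops held by disulfide bonds. Most are tethered to the outer leaflet of the plasma membrane by a GPI anchor, while a few are secreted. In stratified epithelia several of them mark differentiating layers, others mark blood cell precursors, and the urokinase receptor gathers a protease at the cell surface.

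Levels are in FPKM, in which fragment numbers are divided by transcript length and by library size, so that levels of different genes can be compared. Log2 fold changes are on the log2(FPKM + 1) scale with the SE of 1 fit over all libraries, which understates changes of low genes. A gene is called where limma's adjusted p over the 12314 genes tested is under 0.05; all 8 members were tested, 4 of them at 1 FPKM or more in every library. Groups are said not to overlap where all libraries of 1 lie above all of the other, which is common here. Over all genes this held for 30.2% higher and 34.3% lower with tamoxifen plus alpelisib over tamoxifen. With tamoxifen over estradiol it held for 21.0% higher and 50.8% lower, and with tamoxifen plus alpelisib over estradiol for 26.7% and 52.7%. The lowest steps of the values put the depth at 16.2 to 19.2 M fragments (M, mega) per library. Estradiol 2 stands apart, with 15 genes on that lowest step against 78 to 94 in the other 6 libraries and with 2276 FPKM of ribosomal RNA precursor (Rn45s) against 189 to 764, so fold changes of members against or with estradiol are also given without it. Epithelial markers summed to 2846 to 7564 FPKM per library and 11 of 11 reached 1 FPKM, while stromal markers summed to 55.4 to 268 FPKM, highest in vehicle. In such bulk samples fewer cells of a type and less RNA per cell cannot be told apart.

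The start regions of 3 members are shown because these genes moved with treatment in different ways and sequence entries were at hand. RefSeq promoter entries (GRCm38.p6, from 250 bases before to 50 after the gene start) were matched for Plaur, Lypd3 and Lypd8 and not for Psca, Slurp1, Ly6d, Ly6a or Ly6e. Plaur is at chr7:24462233-24462532, Lypd3 at chr7:24636320-24636619 and the first of 2 Lypd8 starts at chr11:58378782-58379081, each on the plus strand, and the capitals mark a match to the AP-1 motif.
Plaur: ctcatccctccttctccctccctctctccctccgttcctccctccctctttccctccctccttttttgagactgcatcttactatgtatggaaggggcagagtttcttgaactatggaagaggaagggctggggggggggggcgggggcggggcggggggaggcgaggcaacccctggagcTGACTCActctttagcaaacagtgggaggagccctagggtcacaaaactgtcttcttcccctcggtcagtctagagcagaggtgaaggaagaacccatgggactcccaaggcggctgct
Lypd3: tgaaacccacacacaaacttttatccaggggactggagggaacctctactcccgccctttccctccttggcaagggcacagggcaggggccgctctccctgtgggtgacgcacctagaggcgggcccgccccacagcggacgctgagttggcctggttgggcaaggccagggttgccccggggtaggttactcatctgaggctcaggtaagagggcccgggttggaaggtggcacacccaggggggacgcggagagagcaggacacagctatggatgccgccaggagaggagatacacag
Lypd8: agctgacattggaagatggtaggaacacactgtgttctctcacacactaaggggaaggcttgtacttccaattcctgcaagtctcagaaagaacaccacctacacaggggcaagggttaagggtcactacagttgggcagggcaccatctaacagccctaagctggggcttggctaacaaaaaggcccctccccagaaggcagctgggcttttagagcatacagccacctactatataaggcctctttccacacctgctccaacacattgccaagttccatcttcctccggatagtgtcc
The searched motifs were TGANTCA for AP-1, GTAAACA for FOXO factors and the palindromic estrogen response element, on both strands. The Plaur window holds 1 match, TGACTCA, whose first base lies 69 bases before the start, and the Lypd3 window and both Lypd8 windows hold none of the 3 motifs. Of 32851 promoter windows of the same length, 7.81% hold the AP-1 letters, 3.65% the FOXO letters and 0.07% the estrogen response element. The windows have 59.3% G and C for Plaur, 64% for Lypd3 and 51.3% for Lypd8.

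**Figure D1:**
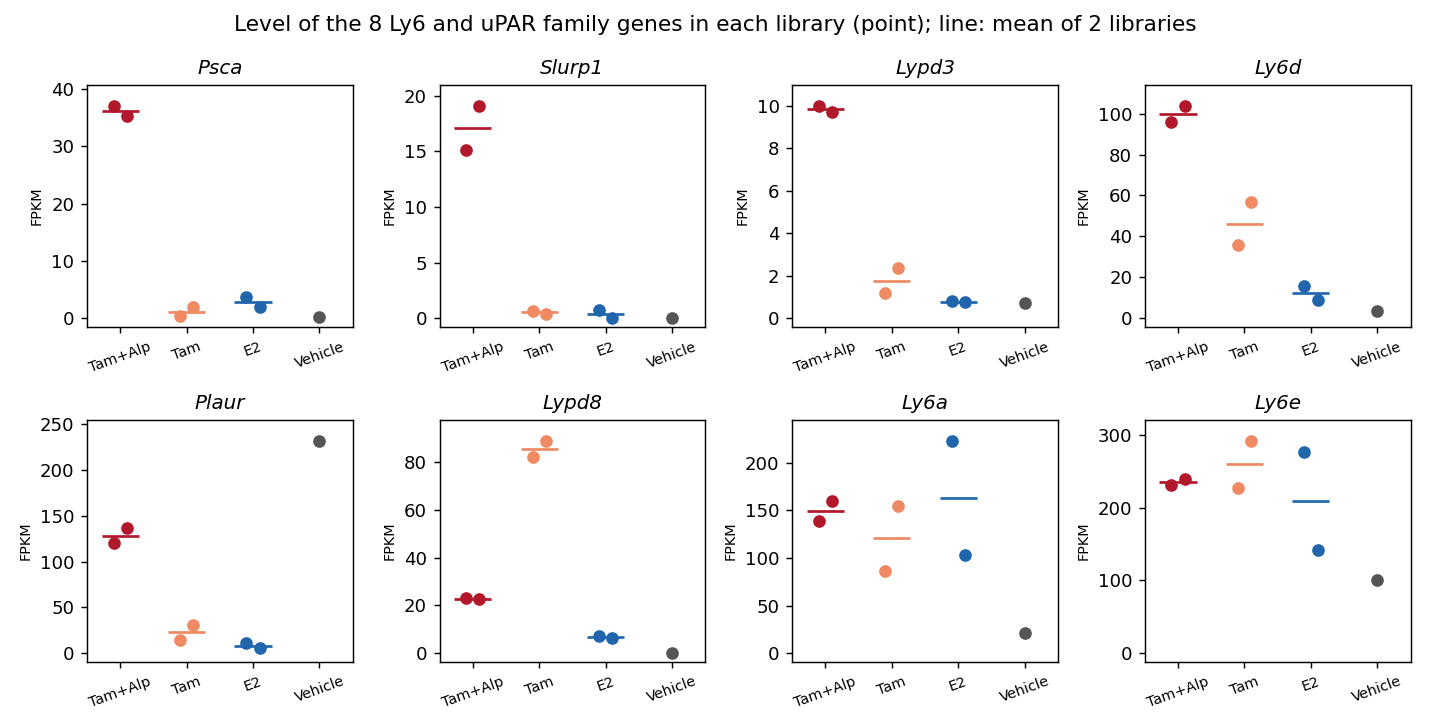
FPKM of each of the 8 genes (1 panel per gene, linear axis from 0) in libraries of tamoxifen plus alpelisib (Tam+Alp), tamoxifen (Tam), estradiol (E2) and vehicle; points are libraries and lines the mean of 2. Psca, Slurp1, Lypd3 and Ly6d are highest in both Tam+Alp libraries, Plaur in vehicle at 232 FPKM and Lypd8 in both Tam libraries at 82.3 and 88.9 FPKM.

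Psca, Slurp1 and Lypd3 stood at low levels in every group except the one given alpelisib. Psca, prostate stem cell antigen, is a GPI-anchored surface protein of several mucosal epithelia. It had 37.0 and 35.3 FPKM with tamoxifen plus alpelisib, against 0.408 and 1.96 FPKM with tamoxifen, while estradiol libraries had 3.78 and 1.90 FPKM and vehicle 0.321 FPKM. Both alpelisib libraries lay above the other 5, and tamoxifen and estradiol libraries overlapped. From the length of its single transcript this is about 554 and 491 fragments with alpelisib, against 6.24 and 27.3 with tamoxifen and 5.3 in vehicle. The mean was 30.5-fold that of tamoxifen (log2 fold change 4.18 ± 0.38) and 12.7-fold that of estradiol (3.32 ± 0.38; 2.96 ± 0.46 without estradiol 2).

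Slurp1 encodes a secreted member made by keratinocytes that acts on nicotinic acetylcholine receptors, and loss of its human counterpart causes a thickening of the skin of palms and soles. It had 15.1 and 19.1 FPKM with tamoxifen plus alpelisib, against 0.702 and 0.434 FPKM with tamoxifen, 0.750 and 0 FPKM with estradiol and 0 FPKM in vehicle. The alpelisib libraries did not overlap with any other, and the others lay under 1 FPKM. Its log2 fold change over tamoxifen was 3.52 ± 0.28, a mean level 30.1-fold higher, and no fold is given against vehicle, where it is listed at 0.

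Lypd3, also known as C4.4A, is a GPI-anchored relative of the urokinase receptor in the suprabasal layers of squamous epithelium. Its levels were 9.98 and 9.73 FPKM with tamoxifen plus alpelisib, against 1.195 and 2.36 FPKM with tamoxifen, 0.795 and 0.789 FPKM with estradiol and 0.716 FPKM in vehicle. Again the alpelisib libraries were the highest, 5.54-fold above tamoxifen in the mean (log2 fold change 1.998 ± 0.21). Against vehicle the log2 fold change of tamoxifen was 0.66 ± 0.26, which was not called, but it was called with median-of-ratios scaling and without tamoxifen 1.

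Ly6d, which marks early lymphoid cells in mice and is a surface antigen of human keratinocytes, differed from these 3 in that it was called higher with tamoxifen as well. It had 96.0 and 103.6 FPKM with tamoxifen plus alpelisib, against 35.8 and 56.6 FPKM with tamoxifen, 15.7 and 8.76 FPKM with estradiol and 3.62 FPKM in vehicle. The 4 groups did not overlap and followed that order. Tamoxifen stood 12.8-fold above vehicle (log2 fold change 3.32 ± 0.38) and 3.79-fold above estradiol (1.85 ± 0.31; 1.47 ± 0.29 without estradiol 2). Tamoxifen plus alpelisib over tamoxifen was 1.13 ± 0.31 on the log2 scale, not called except with median-of-ratios scaling. Estradiol over vehicle was called at 1.46 ± 0.38 (1.85 ± 0.34 without estradiol 2), and this call ended without estradiol 1, with no filter on low values, with the replicate block and with only these 2 groups in the fit.

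In the comparison of tamoxifen plus alpelisib with tamoxifen, which addresses what PI3K alpha inhibition changes under tamoxifen, 4 of 8 members were called higher (Psca, Slurp1, Lypd3 and Plaur) and 1 lower (Lypd8). Over all genes 11.7% were called, 6.93% higher and 4.81% lower. The members' median log2 fold change was 1.56, against -0.03 over all genes. The members were chosen with values of this comparison known, and nothing is read from the count or the median. All 5 calls ended when either alpelisib library was left out, where 20 and 10 genes were called in all against 1445, while the fold changes kept their sign. The Plaur call also ended without tamoxifen 1 and with no filter on low values.

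Squamous epithelium markers moved beside these genes. Of 24 such markers, 19 were tested, and 11 rose and 0 fell with tamoxifen plus alpelisib over tamoxifen, with a median log2 fold change of 0.94. Krt14, a keratin of basal keratinocytes, had 215 and 216 FPKM with tamoxifen plus alpelisib, against 32.5 and 37.5 FPKM with tamoxifen (log2 fold change 2.59 ± 0.14, limma adjusted p = 0.00156). Krt16, a keratin of activated keratinocytes, had 11.4 and 12.9 FPKM with tamoxifen plus alpelisib, against 0.493 and 0.757 FPKM with tamoxifen (3.02 ± 0.20, limma adjusted p = 0.00256). These 2 calls ended without tamoxifen plus alpelisib 2. All other calls of the list (Krt13, Krt17, Krt6a, Krt6b, Lgals7, Dsg3, Calml3, Dmkn and Trp63) ended when either alpelisib library was left out. Those of Dsg3 and Calml3 also ended without tamoxifen 1. Those of Dmkn and Trp63 also ended without either tamoxifen library, with no filter on low values and with the replicate block. The summed level of the list was 1204 and 1272 FPKM with tamoxifen plus alpelisib, 553 and 584 FPKM with tamoxifen, 265 and 231 FPKM with estradiol and 668 FPKM in vehicle. In vehicle 2 genes, Sprr1a at 312 FPKM and Krt17 at 277 FPKM, made up most of that sum. Of the 19 markers 9 rose and 4 fell with tamoxifen over vehicle, at a median log2 fold change of 0.46. Over all genes 14.9% were called higher and 24.1% lower in that comparison. Krt5, Krt13, Krt14, Krt6a and Krt6b were lowest in vehicle, as Psca, Lypd3 and Ly6d were. The 4 that fell, Krt17, Krt4, Lor and Sprr1a, were highest in vehicle. Krt5 had 300 and 308 FPKM with tamoxifen plus alpelisib, against 321 and 271 FPKM with tamoxifen.

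Of the neutrophil markers S100a8 and S100a9 together had 47.2 and 50.6 FPKM with tamoxifen plus alpelisib, against 2.996 and 6.32 FPKM with tamoxifen, 4.57 and 3.58 FPKM with estradiol and 0.385 FPKM in vehicle. Both genes are also made by stressed squamous cells. Of the other 9 neutrophil markers 8 (Mpo, Elane, Ngp, Camp, Retnlg, Csf3r, Cxcr2 and Mmp8) summed to at most 0.461 FPKM in any library, with Elane at 0 in all. The ninth, Itgam, an integrin subunit of myeloid cells, had 31.7 and 33.0 FPKM with tamoxifen plus alpelisib and 51.5 and 56.0 FPKM with tamoxifen. Macrophage markers summed to 135 and 133 FPKM with tamoxifen plus alpelisib, 56.5 and 70.8 FPKM with tamoxifen, 167 and 102 FPKM with estradiol and 52.5 FPKM in vehicle. Of the 9 tested 1 rose with tamoxifen plus alpelisib over tamoxifen and 0 fell, at a median of 0.28, the 1 being Cd14 with 102 and 104 FPKM with tamoxifen plus alpelisib, against 31.0 and 34.7 FPKM with tamoxifen. The part of other cell types in the Psca, Slurp1 and Lypd3 differences was not tested.

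**Figure D2:**
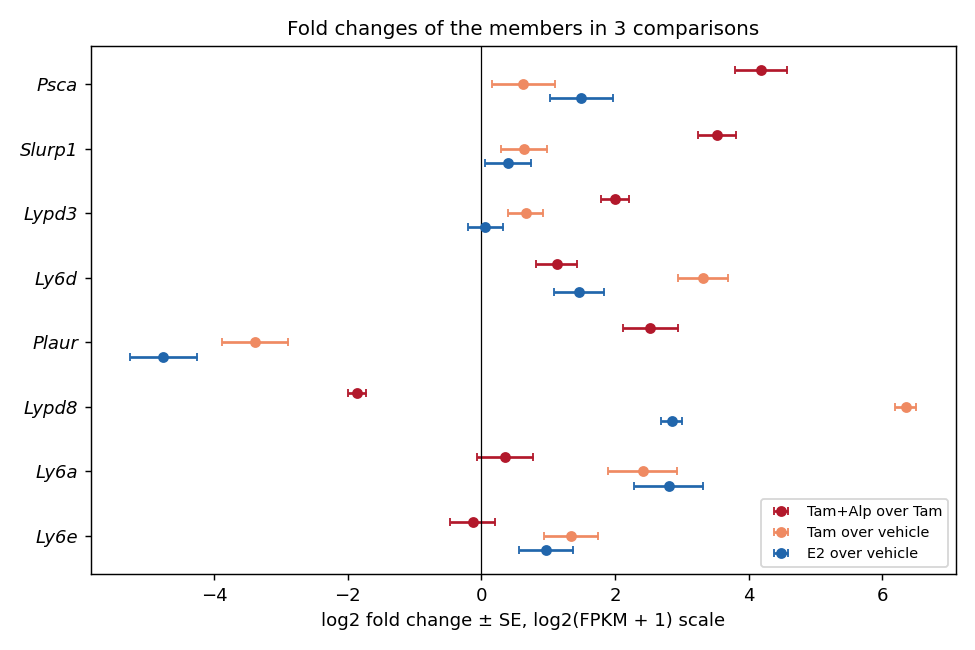
Log2 fold change ± SE of the 8 genes on the log2(FPKM + 1) scale for tamoxifen plus alpelisib over tamoxifen, tamoxifen over vehicle and estradiol over vehicle. Plaur has 2.53 in the first and -3.38 and -4.76 in the other two, and Lypd8 has -1.86 against 6.35 and 2.85; the first 2 comparisons share the tamoxifen libraries and the last 2 the vehicle library.

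Plaur was the only one of the 8 with its highest level in vehicle. It encodes the GPI-anchored receptor of urokinase, the protease that turns plasminogen into plasmin at the cell surface. It had 120 and 136 FPKM with tamoxifen plus alpelisib, 14.9 and 30.3 FPKM with tamoxifen, 10.96 and 5.19 FPKM with estradiol and 232 FPKM in vehicle. The groups did not overlap, and their order was vehicle, tamoxifen plus alpelisib, tamoxifen, estradiol. Tamoxifen was 10.3-fold lower than vehicle (log2 fold change -3.38 ± 0.50) and estradiol 28.7-fold lower (-4.76 ± 0.50; -4.28 ± 0.49 without estradiol 2), and both were called. Tamoxifen plus alpelisib lay 5.67-fold above tamoxifen (2.53 ± 0.41), and against vehicle its log2 fold change was -0.85 ± 0.50, not called except with only these 2 groups in the fit. Tamoxifen over estradiol was 1.37 ± 0.41, and that call ended without estradiol 2 (0.90 ± 0.43), without tamoxifen 2, with no filter on low values, with the replicate block and with only these 2 groups in the fit.

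Stromal markers summed to 121 and 129 FPKM with tamoxifen plus alpelisib, 55.7 and 55.4 FPKM with tamoxifen, 190 and 181 FPKM with estradiol and 268 FPKM in vehicle. Dcn alone had 86.8 and 93.1 FPKM with tamoxifen plus alpelisib, against 31.7 and 30.9 FPKM with tamoxifen. Of the 10 tested 3 rose (Dcn, Vim and Lum) and 1 fell (Dpt) in that comparison, at a median log2 fold change of -0.28. Smooth muscle markers summed to 24.0 and 25.7, 27.5 and 26.5, 15.7 and 13.0, and 78.6 FPKM in the same order of groups. Vehicle was highest for Plaur and for both sums. Estradiol libraries had the lowest Plaur, the second highest stromal sum and the lowest smooth muscle sum. The part of these cells in the Plaur levels was not tested.

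The ligand of the receptor also rose with alpelisib. Of 27 other genes of plasminogen activation 21 were tested, and with tamoxifen plus alpelisib over tamoxifen 6 rose and 0 fell, with a median log2 fold change of 0.33. Plau, urokinase itself, had 47.1 and 45.2 FPKM with tamoxifen plus alpelisib, against 7.71 and 11.8 FPKM with tamoxifen, 17.1 and 13.7 FPKM with estradiol and 18.8 FPKM in vehicle. Its log2 fold change over tamoxifen was 2.16 ± 0.21 (limma adjusted p = 0.00487), and over vehicle 1.25 ± 0.26 (limma adjusted p = 0.0134). The call over vehicle ended when either alpelisib library was left out (highest limma adjusted p = 0.0739).

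Plat, the tissue-type plasminogen activator, had 70.2 and 76.7 FPKM with tamoxifen plus alpelisib, against 23.4 and 36.5 FPKM with tamoxifen, 305 and 233 FPKM with estradiol and 477 FPKM in vehicle. It fell with tamoxifen against vehicle, with a log2 fold change of -3.98 ± 0.31 (limma adjusted p = 0.000327), and rose with alpelisib by 1.30 ± 0.25 (limma adjusted p = 0.0267). Plaur and Plat differed in the estradiol libraries, where Plat was above both tamoxifen groups and Plaur had its lowest levels. Serpinb2, an inhibitor of urokinase, had 2.19 and 2.62 FPKM with tamoxifen plus alpelisib, against 0.145 and 0.096 FPKM with tamoxifen (1.60 ± 0.17, limma adjusted p = 0.00563).

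Integrin subunits were the other genes of the list that rose. They were Itgav at 1.2003 ± 0.13, Itgb5 at 1.13 ± 0.13 and Itga3 at 0.65 ± 0.14 (limma adjusted p = 0.00623, 0.00717 and 0.0346). Integrin alpha-v and beta-5 form a receptor of vitronectin, to which the urokinase receptor also binds. The calls of Plau, Serpinb2, Itgav and Itgb5 over tamoxifen ended when either alpelisib library was left out, that of Plat also without tamoxifen 1, with the replicate block and with no filter, and that of Itga3 whichever of the 4 libraries was left out, with the block and with no filter.

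With tamoxifen against vehicle 3 of the 21 genes rose and 10 fell, where 14.9% of all genes were called higher and 24.1% lower, and the median was -0.31, against -0.12 over all genes. Hgfac, the activator of hepatocyte growth factor, had 99.6 and 132 FPKM with tamoxifen, against 1.31 FPKM in vehicle (log2 fold change 5.65 ± 0.21, limma adjusted p = 4.49e-05). Plau had a log2 fold change of -0.91 ± 0.26 (limma adjusted p = 0.0344), a call that ended without tamoxifen 1, with no filter on low values, with the replicate block and with only these 2 groups in the fit. The abundant plasminogen-binding pair S100a10 and Anxa2 was at 522 and 601 and at 504 and 530 FPKM with tamoxifen plus alpelisib, against 367 and 544 and 438 and 517 FPKM with tamoxifen, with no call in this comparison. Itga5, an integrin subunit of the fibronectin receptor, had 6.76 and 9.24 FPKM with tamoxifen, against 30.5 FPKM in vehicle (-1.82 ± 0.22, limma adjusted p = 0.00149), and the matrix protease gene Mmp2 had 1.60 and 1.45 FPKM, against 5.30 FPKM in vehicle (-1.32 ± 0.18, limma adjusted p = 0.00258). St14, the membrane protease matriptase, had 80.6 and 80.5 FPKM with tamoxifen, against 52.9 FPKM in vehicle, and its call (0.60 ± 0.18, limma adjusted p = 0.0374) ended without either tamoxifen library, with the replicate block and with only these 2 groups in the fit. Itgb1, at 48.6 to 69.0 FPKM over the 7 libraries, and Plgrkt, a plasminogen receptor at 0.797 to 7.45 FPKM, were called neither with tamoxifen over vehicle nor with alpelisib over tamoxifen.

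**Figure D3:**
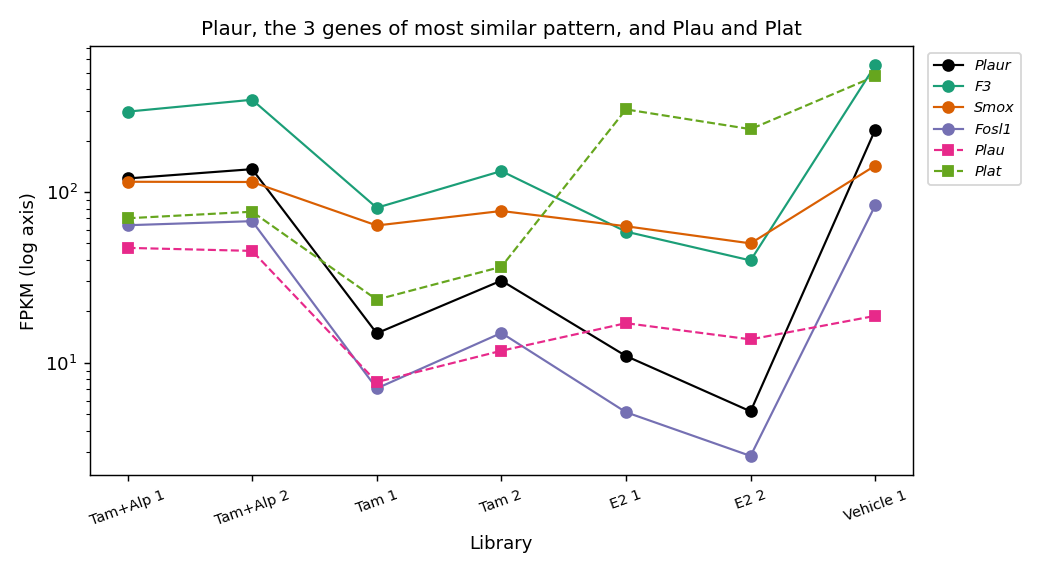
FPKM on a log axis by library for Plaur, the 3 genes whose pattern over the 7 libraries was most like it (F3, Smox and Fosl1, solid lines) and the activators Plau and Plat (dashed lines); lines only join values of 1 gene. F3, Smox and Fosl1 are highest in vehicle and higher in both Tam+Alp than in both Tam libraries, whereas Plat is higher in E2 (305 and 233 FPKM) than in Tam+Alp and Plau is highest in Tam+Alp.

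Lypd8 was the member with the highest levels under tamoxifen alone. Its GPI-anchored product coats the epithelium of the mouse colon and binds the flagella of bacteria. It had 23.2 and 22.6 FPKM with tamoxifen plus alpelisib, 82.3 and 88.9 FPKM with tamoxifen, 7.09 and 6.26 FPKM with estradiol and 0.0605 FPKM in vehicle. No groups overlapped. The vehicle value is near that of a single fragment, 0.0428 to 0.0478 FPKM for its transcripts, so that no fold of the means is given. On the log2 scale tamoxifen over vehicle was 6.35 ± 0.16 and estradiol over vehicle 2.85 ± 0.16 (2.93 ± 0.14 without estradiol 2). Tamoxifen was 12.8-fold above estradiol (3.497 ± 0.13; 3.42 ± 0.12 without estradiol 2), and tamoxifen plus alpelisib was 3.74-fold lower than tamoxifen (-1.86 ± 0.13).

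Erythroid markers followed the same order of groups. Their sum was 292 and 312 FPKM with tamoxifen plus alpelisib, 1535 and 1116 FPKM with tamoxifen, 89.1 and 130 FPKM with estradiol and 36.2 FPKM in vehicle, with Hbb-b1, a beta globin, at 103 and 113, 513 and 416, 38.1 and 40.9, and 13.8 FPKM. Alas2, another gene of the list, had 0.686 and 0.663 FPKM with tamoxifen plus alpelisib, 5.77 and 2.27 FPKM with tamoxifen, 0.514 and 0.737 FPKM with estradiol and 0.108 FPKM in vehicle. Slc4a1, a membrane protein of red cells, was at most 0.0234 FPKM in any library. Itgam had the same order of groups, with 10.1 and 8.80 FPKM with estradiol and 0.406 FPKM in vehicle. Of the 9 macrophage markers tested, 0 rose and 8 fell with tamoxifen over estradiol, at a median log2 fold change of -1.71. Of the 3 neutrophil markers tested, 2 rose, Itgam among them, and 1 fell in that comparison. Over all genes 12.3% were called higher and 36.2% lower there. The part of red or myeloid cells in the Lypd8 levels was not tested.

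Ly6a and Ly6e were the most abundant members in estradiol and tamoxifen libraries, and together made up 55.1% and 55.0% of the summed FPKM of the 8 genes with tamoxifen plus alpelisib, 69.9% and 71.2% with tamoxifen, 92.8% and 91.5% with estradiol and 34.1% in vehicle. Ly6a, known as Sca-1, marks blood stem cells in mice and is induced by interferon. It had 139 and 159 FPKM with tamoxifen plus alpelisib, 86.3 and 155 FPKM with tamoxifen, 223 and 103 FPKM with estradiol and 20.9 FPKM in vehicle. All 6 treated libraries were above vehicle and overlapped with each other. Over vehicle the log2 fold change was 2.77 ± 0.51 with tamoxifen plus alpelisib, 2.41 ± 0.51 with tamoxifen and 2.80 ± 0.51 with estradiol (3.35 ± 0.44 without estradiol 2), each called. Of these, the call for the combination was lost on leaving out its library 2, and the last with only these 2 groups in the fit. Between the treated groups no Ly6a difference was called.

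Ly6e encodes a GPI-anchored protein that hinders the entry of some viruses and is also induced by interferon. It had 231 and 239 FPKM with tamoxifen plus alpelisib, 227 and 292 FPKM with tamoxifen, 277 and 142 FPKM with estradiol and 101 FPKM in vehicle. Vehicle was again the lowest and the treated groups overlapped. Tamoxifen over vehicle was called at 1.34 ± 0.40, but not without either tamoxifen library, with no filter, with the replicate block or with only these 2 groups in the fit. The log2 fold change over vehicle was 1.21 ± 0.40 with tamoxifen plus alpelisib and 0.97 ± 0.40 with estradiol, neither called, although the second was called without estradiol 2 (1.44 ± 0.24) and the first with median-of-ratios scaling and with only these 2 groups in the fit. Ly6e varied least of the 8, by 2.89-fold between its highest and lowest library, against 10.7-fold for Ly6a and 115-fold for Psca.

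Vehicle was the lowest of the 7 libraries for 6 of the 8 members, and Slurp1 was at 0 both there and in estradiol 2. Over all genes 36.9% had both tamoxifen libraries above vehicle and 50.3% had both below. For estradiol these shares were 48.8% and 34.5%, and for tamoxifen plus alpelisib 36.9% and 55.0%. Such separation from 1 library is common, and nothing is read from the count. With tamoxifen against vehicle 4 members were called higher (Ly6d, Lypd8, Ly6a and Ly6e) and 1 lower (Plaur), where 39.0% of all genes were called, 14.9% higher and 24.1% lower. With estradiol against vehicle 3 were called higher (Ly6d, Lypd8 and Ly6a) and Plaur lower, where 35.5% of all genes were called, 22.7% higher and 12.8% lower. Psca was also called there with a pseudocount of 0.1, and without estradiol 2 there were 4 higher (Ly6e added) and 1 lower. Tamoxifen plus alpelisib against vehicle had 6 members called higher and 0 lower, the exceptions being Plaur and Ly6e, where 34.9% of all genes were called, 13.1% higher and 21.8% lower. Against estradiol tamoxifen had 3 called higher (Ly6d, Plaur and Lypd8) and 0 lower, where 48.5% of all genes were called, 12.3% higher and 36.2% lower. In the same comparison with estradiol tamoxifen plus alpelisib had 6 called higher and 0 lower, the exceptions being Ly6a and Ly6e, where 53.2% of all genes were called, 15.7% higher and 37.5% lower. Without estradiol 2 the counts were 2 higher and 0 lower for tamoxifen (Plaur lost) and 6 higher and 0 lower for tamoxifen plus alpelisib. Ly6e was called in both without estradiol 1, and Lypd3 in the first with a pseudocount of 0.1, with median-of-ratios scaling and without tamoxifen 1. The 3 comparisons with vehicle share 1 library. Their medians over all genes, and those of the 2 with estradiol, lay off 0 (-0.12 for tamoxifen, 0.12 for estradiol and -0.15 for tamoxifen plus alpelisib against vehicle, and -0.26 for both against estradiol), and scaling by the median of ratios brought these 5 medians to 0.02, 0.00, 0.00, 0.01 and 0.01 in the order tamoxifen, estradiol and tamoxifen plus alpelisib against vehicle, then tamoxifen and tamoxifen plus alpelisib against estradiol.

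The rest of the family was mostly silent. Of 33 other family genes with a row, 8 were at 0 in every library, 14 were tested and 6 reached 5 FPKM. With tamoxifen plus alpelisib over tamoxifen 1 of the 14 rose and 0 fell, at a median log2 fold change of 0.16. The gene was Ly6g6c, with 2.39 and 2.57 FPKM with tamoxifen plus alpelisib, against 0.698 and 0.951 FPKM with tamoxifen, 0 FPKM in both estradiol libraries and 0.136 FPKM in vehicle (0.93 ± 0.13, limma adjusted p = 0.0111), a call lost without either alpelisib library or tamoxifen 1. It was named after its values were seen, being the 1 gene called. With tamoxifen over vehicle 3 of 14 rose and 4 fell (median 0.06), where 14.9% of all genes were called higher and 24.1% lower. With estradiol over vehicle 0 rose and 2 fell (median -0.18), where 22.7% of all genes were called higher and 12.8% lower. The counts with estradiol changed without estradiol 2.

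Lypd2, the neighbour of Slurp1, had 21.3 and 19.2 FPKM with tamoxifen plus alpelisib, against 4.36 and 10.7 FPKM with tamoxifen, 5.10 and 0 FPKM with estradiol and 23.6 FPKM in vehicle. Vehicle was highest here, as for Plaur. The log2 fold change over tamoxifen was 1.42 and was not called (limma adjusted p = 0.306), and that of estradiol over vehicle was -3.31 ± 0.99 (limma adjusted p = 0.0437), a call that ended without estradiol 2, with a pseudocount of 0.1, with no filter, with the replicate block and with only these 2 groups in the fit.

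Cd59a, which keeps the complement attack complex off the cell's own membrane, had 6.65 and 5.69 FPKM with tamoxifen plus alpelisib, 5.61 and 5.53 FPKM with tamoxifen, 8.60 and 12.0 FPKM with estradiol and 13.1 FPKM in vehicle. It fell with tamoxifen against vehicle (-1.10 ± 0.22, limma adjusted p = 0.00981). Ly6c1, a surface marker of monocytes and of some endothelium, had 2.11 and 2.68 FPKM with tamoxifen plus alpelisib, 1.54 and 2.51 FPKM with tamoxifen, 5.13 and 4.13 FPKM with estradiol and 5.32 FPKM in vehicle, and fell with tamoxifen against vehicle (-1.08 ± 0.25, limma adjusted p = 0.0164), a call lost without tamoxifen 1 and with only these 2 groups in the fit. Endothelial markers summed to 25.6 and 27.3 FPKM with tamoxifen plus alpelisib, 25.4 and 37.5 FPKM with tamoxifen, 88.4 and 68.2 FPKM with estradiol and 54.7 FPKM in vehicle. Most of each sum was Sox17, at 23.0 and 23.6, 21.8 and 34.3, 69.9 and 55.1, and 30.5 FPKM in that order of groups. Of the 9 tested 0 rose and 6 fell with tamoxifen over vehicle, at a median log2 fold change of -1.02. Over all genes 14.9% were called higher and 24.1% lower there. With estradiol over vehicle 1 rose, Sox17, and 3 fell, Cldn5, Cdh5 and Emcn, at a median of -0.26. Cldn5 had 3.45 and 2.76 FPKM with estradiol, against 7.54 FPKM in vehicle. Cdh5 had 1.67 and 1.53 against 2.97 FPKM, and Emcn 1.08 and 0.899 against 2.10 FPKM. The higher sum with estradiol than in vehicle was thus not shared by these 3 genes. The part of endothelial cells in Ly6c1 and Ly6a levels was not tested. Lypd6b, a modulator of nicotinic receptors, rose with tamoxifen against vehicle (1.17 ± 0.29, limma adjusted p = 0.0206), with 4.90 and 8.34 FPKM with tamoxifen and 2.29 FPKM in vehicle; this call was lost with no filter, with the replicate block and with only these 2 groups in the fit. Ly6g6d and Ly6g6e, the other 2 that reached 5 FPKM, had 7.18 and 8.31 and 7.37 and 6.12 FPKM with tamoxifen plus alpelisib, against 3.43 and 7.07 and 3.87 and 9.70 FPKM with tamoxifen, and were not called between these groups.

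Receptors on which secreted members act were hardly detected. Of 16 nicotinic acetylcholine receptor subunits 15 were under 1 FPKM in every library, among them Chrna7, the receptor subunit on which Slurp1 is known to act, at 0 in all but vehicle (0.177 FPKM). Chrnb1 was the 1 subunit tested and fell with tamoxifen against vehicle (-1.75, limma adjusted p = 0.00221). Genes that build and attach the GPI anchor were 26, of which 25 were tested. With tamoxifen plus alpelisib over tamoxifen 0 of these rose and 1 fell, Pigk, a subunit of the transamidase that attaches the anchor (-0.63 ± 0.12, limma adjusted p = 0.0267), a call lost with the replicate block and whichever of the 4 libraries was left out. The list's median was -0.15.

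Psca, Slurp1, Ly6d, Ly6e and Ly6a lie in 1 cluster in the annotation of GRCm38.p6, which was used only for gene order, and Plaur and Lypd3 lie on chromosome 7 with 8 coding genes between them. From Psca to Gpihbp1 the cluster spans 29 coding genes, of which 20 are in the table and 7 reached 5 FPKM. Those 7 are Psca, Slurp1, Lypd2, Ly6d, Ly6e, Ly6a and Ly6c1. Levels did not follow position as a block. Them6, between Psca and Slurp1, had 0.583 and 0.544 FPKM with tamoxifen plus alpelisib, against 0.282 and 0.940 FPKM with tamoxifen and 1.33 FPKM in vehicle. Lynx1, between Lypd2 and Ly6d in the table, a modulator of nicotinic receptors in the brain, had 1.35 and 1.18 FPKM with tamoxifen plus alpelisib, against 1.44 and 0.664 FPKM with tamoxifen. How far reads are shared between copies is not known, since their handling is unstated and only exact 50-base stretches were compared. Of the 50-base stretches of Ly6a transcripts 19% also occur in transcripts of other genes, most of them (195 of 246) in Ly6c1, so the levels of these 2 genes are uncertain, while the other 7 members share 0%.

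**Figure D4:**
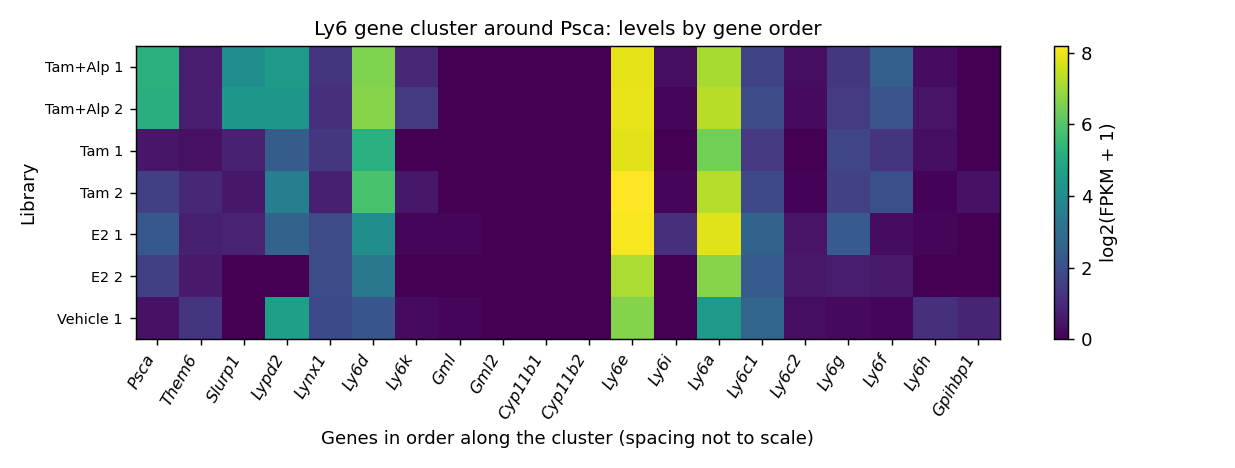
Levels, as log2(FPKM + 1), of the 20 genes of the cluster that are in the table, in annotation order from left to right, in each of the 7 libraries. Psca and Slurp1 are bright in the 2 Tam+Alp rows, with Them6 between them dark in all rows (at most 1.33 FPKM). Ly6e and Ly6a are bright in all 7 rows, and lowest in vehicle (101 and 20.9 FPKM).

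Over the 7 libraries, members fell into similar patterns without forming 1 group. As a description across libraries that share treatments, Pearson's r of log2(FPKM + 1) was 0.95 between Psca and Slurp1, 0.92 between Psca and Lypd3, 0.96 between Slurp1 and Lypd3, and 0.88 between Ly6a and Ly6e. Plaur against Lypd8 had -0.27 and against Ly6a -0.43. Among 6452 other genes of at least 5 FPKM in the mean, those most like Plaur were F3 (r of 0.998), Smox (0.997) and Fosl1 (0.996). F3 encodes tissue factor, which starts blood clotting, and had 296 and 347 FPKM with tamoxifen plus alpelisib, against 80.9 and 133 FPKM with tamoxifen, 58.6 and 39.7 FPKM with estradiol and 551 FPKM in vehicle. Fosl1, a subunit of the factor AP-1, had 63.9 and 67.5 FPKM with tamoxifen plus alpelisib, against 7.08 and 15.0 FPKM with tamoxifen, 5.13 and 2.85 FPKM with estradiol and 83.5 FPKM in vehicle.

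The genes most like Slurp1 were Pxn, the focal adhesion protein paxillin (0.990), Fbxo34 (0.989) and Cxcl2, a chemokine that attracts neutrophils (0.977), and those most like Psca were Ecm1 (0.976), Usp38 (0.974) and Proser2 (0.974). Lypd3 was matched by Xdh (0.986), Sprr2e, a cornified envelope protein (0.986), and Dedd2 (0.985). Sprr2e had 151 and 165 FPKM with tamoxifen plus alpelisib, against 4.07 and 18.5 FPKM with tamoxifen, and 1.57 and 0.535 FPKM with estradiol and 1.65 FPKM in vehicle. Ly6d was closest to Dhx32 (0.996), Oasl1 (0.993) and Gipc1 (0.992), and Atp2c2 was among the 3 closest to Lypd8 (0.993). Ly6a was closest to Reep4 (0.990) and the interferon-induced genes Usp18 (0.979) and Ifi47 (0.978), and Ly6e to Zbed5 (0.986), Cacfd1 (0.985) and Akr1a1 (0.985). Such values of r over 7 libraries in 4 groups are reached by many genes that change between the same groups.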

How the data were processed

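Total RNA of endometrial epithelial cells was sequenced in 7 libraries. The authors deposited FPKM values in 1 table; the unit was taken from the values and the use of Cufflinks, since they are not whole numbers although the table's name speaks of counts. Per the submitters' processing notes CASAVA, Bowtie and Cufflinks were used, without versions, and the only build named is hg19 while the symbols are mouse symbols. The handling of reads from near-identical copies is unstated. Ignoring case, 23697 of the 24353 symbols were found in tables of mouse gene names, RefSeq's among them.

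Limma-trend was fitted to log2(FPKM + 1) of the 12314 genes with at least 1 FPKM in at least 1 library, over all 7 libraries with 4 group means (3 residual degrees of freedom and 3.27 from the prior). Benjamini-Hochberg adjustment ran over the genes of a comparison. The lone vehicle library is taken to vary as the other groups do, and its own spread is not known. P-values rate a difference between groups against the pooled spread within the groups of 2 libraries. The members, gene lists and tests were chosen with earlier results of these data known. Named genes are the members, other family and plasminogen genes of at least 5 FPKM in 1 library, up to 4 genes of lowest p of the other lists, cluster genes, the 3 genes of highest r with each member, and those said to be named after their values were seen. Among those last are Serpinb2, Them6, Lynx1, Chrna7, Hbb-b1, Alas2, Slc4a1, Sox17, Krt4, Lor, S100a8 and S100a9. A few genes that the rule names are not reported here. Depth was inferred from the lowest step of genes with 1 transcript. Alternatives were a pseudocount of 0.1, no filter, median-of-ratios scaling, a replicate block, only the compared groups and each library left out. The fit was tested on simulated data. R 4.3.3, limma 3.58.1, Python 3.11.15, numpy 2.4.6, pandas 2.3.3 and matplotlib 3.10.9 were used.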

Additional observations from a re-analysis of the deposited data

How the results depend on the processing

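Fold changes of the 8 members were recomputed 384 times under the alternatives. None of the 231 recomputed values of a called difference changed sign, and 203 of them kept the call. Counts of all genes called moved by over 1.5 times as follows. Tamoxifen plus alpelisib against tamoxifen gave 870 genes with no filter and 589 with the replicate block, against 1445, and 10 to 676 with 1 library left out (10 and 20 without an alpelisib library, 297 without tamoxifen 1 and 676 without tamoxifen 2). Members called there with 1 library left out were 0 to 4 higher and 0 to 1 lower, and median-of-ratios scaling gave 5 higher, Ly6d being added. Only the compared groups in the fit gave 197 genes for estradiol against vehicle, against 4366, with 1 member higher in place of 3, and 6843 for tamoxifen plus alpelisib against vehicle, against 4299, with 1 member lower (Plaur) in place of 0; these fits rest on fewer libraries. With 1 library left out, tamoxifen plus alpelisib against vehicle gave 1898 to 1941 genes, and against estradiol 3875 to 6607. Tamoxifen against estradiol had 0 to 1 member lower, the 1 being Psca without tamoxifen 2. The cause of these shifts was not tested. Without the vehicle library its comparisons have no value.

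The mouse numbers 1 and 2 are not stated to mark a shared litter or day. Deviations of same-numbered libraries correlated at -0.40 between estradiol and tamoxifen, -0.18 between estradiol and tamoxifen plus alpelisib and 0.27 between tamoxifen and tamoxifen plus alpelisib, so the numbers were not used to pair libraries. The replicate block kept 4 members higher and 1 lower with alpelisib over tamoxifen. At these depths levels under about 0.1 FPKM rest on single fragments, which limits Slurp1 and Lypd8 in vehicle.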
